A study of Mus musculus with 6 samples.

Results

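The genes described here are the long noncoding RNAs Malat1 and Neat1 and 5 genes for proteins that bind such RNAs in the nucleus, Sfpq, Nono, Pspc1, Tardbp and Hnrnpk. They were taken by gene symbol, and all 7 were found among the 23393 gene rows of the table. RNA came from mouse CD4 T cells on the C57BL/6 background that had been activated through CD3 and CD28 and grown for 2 days with IL-23, IL-1b and IL-6, conditions that make pathogenic Th17 cells, helper cells that secrete IL-17. The group called Stim1KO Stat3C (Stim1fl/fl Stat3CSTOPfl/fl CD4-Cre, 3 libraries) and the group called Stat3C (Stat3CSTOPfl/fl CD4-Cre, 3 libraries) both carried Stat3C, an always active form of STAT3, released in T cells by Cre under Cd4 control. Only the Stim1KO Stat3C cells also had floxed Stim1. STIM1 is the sensor of stored calcium that triggers calcium entry into T cells. Whether the libraries of a group came from separate mice is not stated, so the spread between them may be technical in part.

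Malat1 is an abundant RNA kept in the nucleus at nuclear speckles, the stores of splicing factors. Neat1 is the scaffold of paraspeckles, small nuclear bodies that hold back RNAs and proteins. It is made in a short form, which ends in a poly(A) tail, and a long form, which shares the same start, runs on past that end and is the form that builds the body. The long form of Neat1 and Malat1 lack a poly(A) tail. Both are cut at the 3′ end by RNase P, and a triple helix of U-rich and A-rich stretches protects the end. SFPQ, NONO and PSPC1 are the paraspeckle proteins of the DBHS family. SFPQ and NONO hold the long form of Neat1, and in human cells hnRNP K favours the long form over the short one. TDP-43, the product of Tardbp, binds GU repeats.

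Malat1 (chromosome 19, 5795690 to 5802672, minus strand, GRCm38) and Neat1 (chromosome 19, 5824708 to 5845478, minus strand) lie 22035 bases apart, and each is annotated as a long intergenic noncoding RNA. In each annotated long transcript an A-rich tract follows a U-rich element, and these ends are shown because they are cut without a poly(A) tail, while the libraries were made by poly(A) selection. The 130 bases up to the tract are given from the GENCODE release M21 transcripts as DNA letters, with the core of the U-rich element and then the A-rich tract in capitals (Malat1 at chr19:5795982-5796111 and Neat1 at chr19:5824708-5824837, GRCm38, minus strand).
Malat1: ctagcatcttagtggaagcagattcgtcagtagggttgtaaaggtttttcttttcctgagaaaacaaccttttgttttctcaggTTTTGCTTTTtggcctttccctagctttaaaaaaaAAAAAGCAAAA
Neat1: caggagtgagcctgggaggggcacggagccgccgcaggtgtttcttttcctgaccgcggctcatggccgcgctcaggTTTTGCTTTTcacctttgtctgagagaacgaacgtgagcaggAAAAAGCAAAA
Of 3828 annotated long intergenic noncoding transcripts of at least 1000 bases, 2 held these capital letters, in this order within 130 bases on the transcribed strand. These were the long transcripts of Malat1 and Neat1. The annotated Neat1 transcript ends at the tract, whereas that of Malat1 goes on for a further 292 bases.

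The short form of Neat1 ends upstream, and its last 100 bases (chr19:5842307-5842406, minus strand) are shown because the cleavage factors described further on act at this end. Capitals mark AATAAA, the poly(A) signal, and TGTA, the letters that the cleavage factor subunit NUDT21 binds.
Neat1 short form: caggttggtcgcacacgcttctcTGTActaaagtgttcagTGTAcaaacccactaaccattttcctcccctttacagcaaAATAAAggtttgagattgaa

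The RNAs differ in the repeats that TDP-43 binds. The letters TGTGTG, with overlapping matches counted and the transcribed strand only, occurred 48 times in the 20771 bases of the long Neat1 transcript, or 2.31 per kb. In the 6983 bases of Malat1 they occurred 3 times, or 0.43 per kb, and in the 3004 bases of the short Neat1 transcript also 3 times. A lower density was found in 91.2% of the 3828 transcripts than in long Neat1, and in 40.2% than in Malat1. The longest repeat of each RNA is shown in capitals with 20 bases on each side (Neat1 at chr19:5826007-5826071 and Malat1 at chr19:5799688-5799734, minus strand).
Neat1: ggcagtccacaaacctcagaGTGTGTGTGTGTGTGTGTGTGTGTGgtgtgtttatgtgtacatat
Malat1: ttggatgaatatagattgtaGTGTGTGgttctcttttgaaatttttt
A repeat of at least 25 bases, the length found in Neat1, was present in 3.66% of the 3828 transcripts. The last 5 kb of long Neat1 held 22 of its 48 matches. Many of these were overlapping matches within single repeats, at 19.429 to 19.447 kb and at 19.778 to 19.786 kb from the 5′ end. Runs of CCCC, the kind of stretch that the KH domains of hnRNP K bind, occurred at 2.15 per kb in Malat1 and 2.74 per kb in long Neat1, against a median of 3.18 per kb. A match describes the letters and does not show binding.

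**Figure D1:**
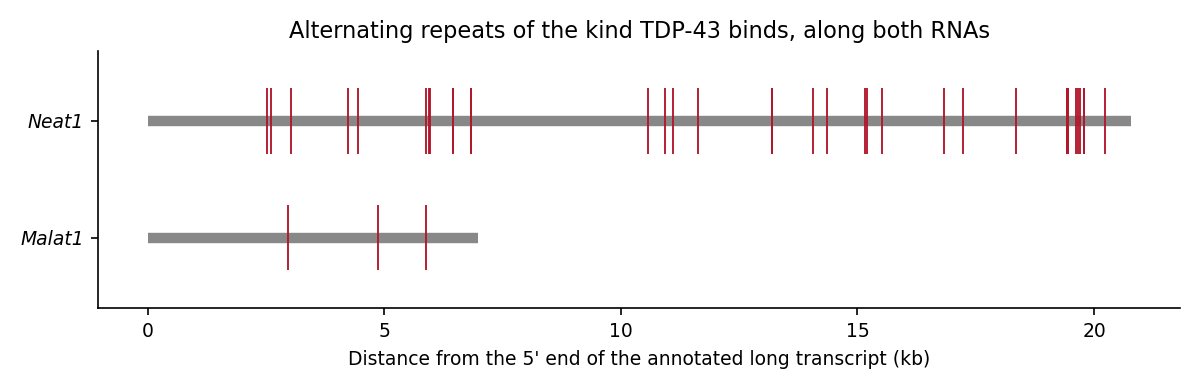
Position of each TDP-43 type repeat match (red ticks) along the annotated long transcripts of Neat1 and Malat1 (grey bars), in kb from the 5′ end. The 48 matches of Neat1 lie mostly beyond the short form, and Malat1 has 3. Many of those near the 3′ end of Neat1 are overlapping matches within single repeats.

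The values used are normalised read counts per gene, that is reads divided by a size factor for each library. The libraries held 16009755 to 51347367 reads, with the Stim1KO Stat3C libraries at the low end. Stim1 stood at 811, 794 and 687 in Stim1KO Stat3C and at 1999, 1969 and 1931 in Stat3C, a log2 difference of -1.37 (SE 0.08, limma adjusted p = 0.000287). Xist was at 11549 in Stim1KO Stat3C replicate 3 and 8362 in Stat3C replicate 3 and at 3.53 or below in the other 4 libraries, while the summed Y-linked genes Ddx3y, Kdm5d, Uty and Eif2s3y showed the reverse (2.99 and 0 in replicate 3 of each group, 2829 to 3699 elsewhere), so replicate 3 of each group differed in sex pattern from replicates 1 and 2. All 6 T cell markers were detected in every library, as was Il17a. In bulk RNA, fewer cells of a type and less RNA per cell cannot be told apart.

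Malat1 and Neat1 were higher in Stim1KO Stat3C cells, and the 5 protein genes lay close to their Stat3C levels. Malat1 was at 12351, 12301 and 5542 normalised counts in Stim1KO Stat3C replicates 1, 2 and 3, against 4659.5, 4098 and 2827.5 in Stat3C replicates 1, 2 and 3. The lowest Stim1KO Stat3C library, replicate 3, was nearest to the Stat3C values but still above all of them. The means were 10065 ± 3917 in Stim1KO Stat3C and 3862 ± 939 in Stat3C (SD, n = 3 each), a 2.61-fold ratio and a log2 difference of 1.32 (SE 0.31).

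Neat1 was at 2154, 1635.5 and 1036 in Stim1KO Stat3C, against 566, 722 and 460 in Stat3C. The groups did not overlap, and replicate 3 was again the lowest library of each group. The means were 1608.5 ± 560 in Stim1KO Stat3C and 583 ± 132 in Stat3C (SD, n = 3 each), a 2.76-fold ratio and a log2 difference of 1.42 (SE 0.26). The ratio of Malat1 to Neat1 counts was 5.73, 7.52 and 5.35 in Stim1KO Stat3C and 8.23, 5.67 and 6.14 in Stat3C, so it overlapped between the groups. The reads behind these values numbered 5569 to 11455 for Malat1 and 1041 to 1573 for Neat1 in Stim1KO Stat3C, and 2918 to 10763 and 475 to 1434 in Stat3C.

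**Figure D2:**
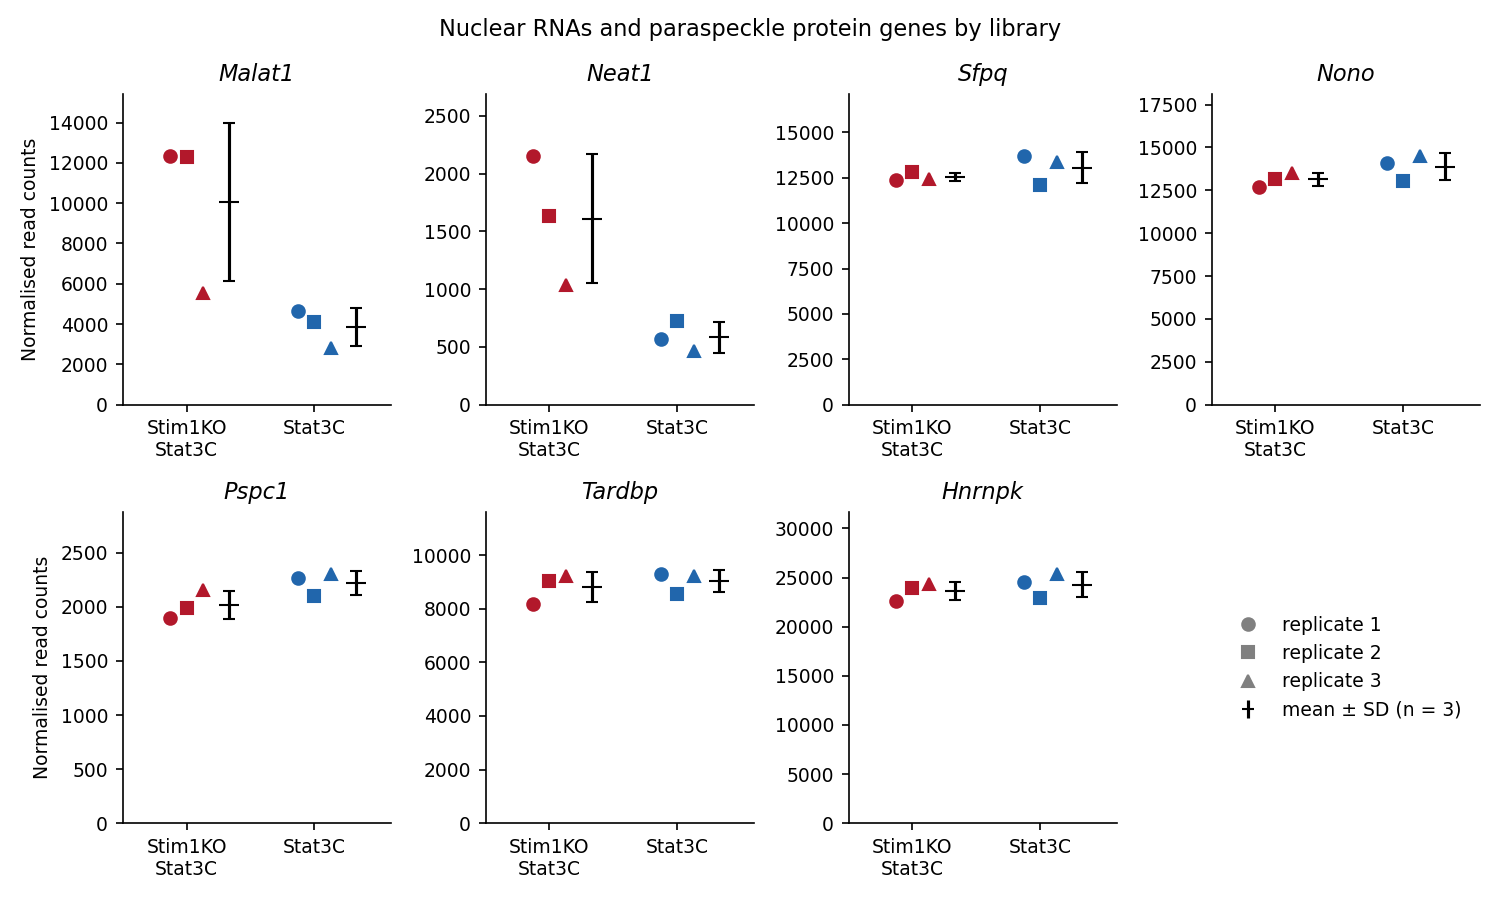
Normalised read counts of the 7 genes in each library, Stim1KO Stat3C in red and Stat3C in blue, with the replicate shown by the symbol and the mean ± SD (n = 3) in black, each axis starting at 0. Malat1 and Neat1 do not overlap between the groups, with replicate 3 lowest in each, and the 5 protein genes overlap.

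Sfpq, which encodes the DBHS protein that Neat1 needs for paraspeckle assembly, was at 12400.5, 12829 and 12407 in Stim1KO Stat3C, against 13716, 12094 and 13384.5 in Stat3C. The Stim1KO Stat3C values lay within the range of the Stat3C values, and the log2 difference was -0.06 (SE 0.06). Nono, the usual partner of SFPQ, was at 12713, 13189 and 13501 in Stim1KO Stat3C, against 14118, 13031 and 14517 in Stat3C (log2 difference -0.08, SE 0.06). The groups overlapped, through Stat3C replicate 2.

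Pspc1, the third DBHS gene, was at 1901, 1993 and 2156.5 in Stim1KO Stat3C, against 2263, 2099 and 2302 in Stat3C (log2 difference -0.14, SE 0.07). It had the largest difference of the 5 protein genes in size, and its groups overlapped as well. Tardbp was at 8193.5, 9046 and 9228 in Stim1KO Stat3C, against 9289.5, 8548 and 9238 in Stat3C (log2 difference -0.03, SE 0.06). Hnrnpk was at 22597.5, 23979 and 24362 in Stim1KO Stat3C, against 24573, 22890 and 25336 in Stat3C (log2 difference -0.04, SE 0.06). For each of these genes Stim1KO Stat3C replicate 1 and Stat3C replicate 2 were the lowest libraries of their groups. The 5 protein genes together summed to 60165 ± 2067 in Stim1KO Stat3C and 62467 ± 3320 in Stat3C (SD, n = 3 each).

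The set of 7 was selected on the normalised counts of this same comparison, in which the RNAs were already known to differ, so the differences above are a description and carry no p-value. In the fit over all genes (limma on log2(value + 1), called at a Benjamini-Hochberg adjusted p under 0.05), 2 of the 7, Malat1 and Neat1, were past the threshold, where 13.6% of the 11947 genes tested were called (8.62% higher and 4.96% lower in Stim1KO Stat3C). The same 2 had groups that did not overlap, as did 35.6% of all genes tested (19.2% higher and 16.4% lower). Nothing can be read from these counts about the 7 genes. Neither was past the threshold without Stim1KO Stat3C replicate 2 or in limma without a variance trend, and Neat1 alone was past it when Stim1KO Stat3C replicate 1, Stat3C replicate 1 or Stat3C replicate 3 was left out.

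Set against the full length of merged exon, the order of the genes was the same in each group except for Malat1. The order holds for libraries made by poly(A) selection, while Malat1 and long Neat1 lack a tail. Per kb of merged exon, Hnrnpk averaged 3657 normalised counts in Stim1KO Stat3C and 3753 in Stat3C, Nono 3002 in Stim1KO Stat3C and 3175 in Stat3C, and Sfpq 2645 in Stim1KO Stat3C and 2754.5 in Stat3C. Malat1 averaged 1441 per kb in Stim1KO Stat3C and 553 in Stat3C, which placed it above Tardbp (1132 per kb) in Stim1KO Stat3C and below it (1158 per kb) in Stat3C. In Stim1KO Stat3C replicate 3, at 794 per kb, Malat1 was below Tardbp too, so the pair overlapped there, and no other neighbours in the order overlapped in either group. Pspc1 averaged 352 per kb in Stim1KO Stat3C and 387 per kb in Stat3C. Neat1 was last, at 77.4 per kb in Stim1KO Stat3C and 28.1 per kb in Stat3C over its 20.8 kb. Gene counts do not separate the forms of Neat1. If all its reads came from the 3004 bases of the short form, the level would be 535.5 per kb in Stim1KO Stat3C and 194 per kb in Stat3C. By these means Neat1 would lie above Pspc1 in Stim1KO Stat3C and below it in Stat3C, so its place would differ between the groups too. In Stim1KO Stat3C replicate 3, with 1036 normalised counts over the 3004 bases, Neat1 would lie below Pspc1 (376 per kb). This pair would thus overlap in Stim1KO Stat3C.

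The question whether the nuclear RNAs moved with the proteins that bind them can also be asked within each group, from how each library deviated from its own group mean on the log2(value + 1) scale. In Stim1KO Stat3C replicates 1, 2 and 3, Malat1 deviated by 0.39, 0.38 and -0.77 and Neat1 by 0.48, 0.09 and -0.57. In Stat3C, Malat1 deviated by 0.30, 0.12 and -0.42 and Neat1 by -0.02, 0.33 and -0.32. The RNAs thus shared a low replicate 3 in each group.

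Nono, Pspc1 and Hnrnpk had their highest library there, with deviations in replicate 3 of 0.04, 0.10 and 0.04 in Stim1KO Stat3C and 0.06, 0.05 and 0.06 in Stat3C. Tardbp was highest in replicate 3 of Stim1KO Stat3C (0.07) and lay at 0.04 in replicates 1 and 3 of Stat3C. Sfpq deviated by -0.02 in replicate 3 of Stim1KO Stat3C and by 0.04 in that of Stat3C. The log2 range within a group was 1.16 in Stim1KO Stat3C and 0.72 in Stat3C for Malat1, 1.06 in Stim1KO Stat3C and 0.65 in Stat3C for Neat1, and at most 0.18 for any of the 5 protein genes in either group. With 3 libraries a group no correlation is given.

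**Figure D3:**
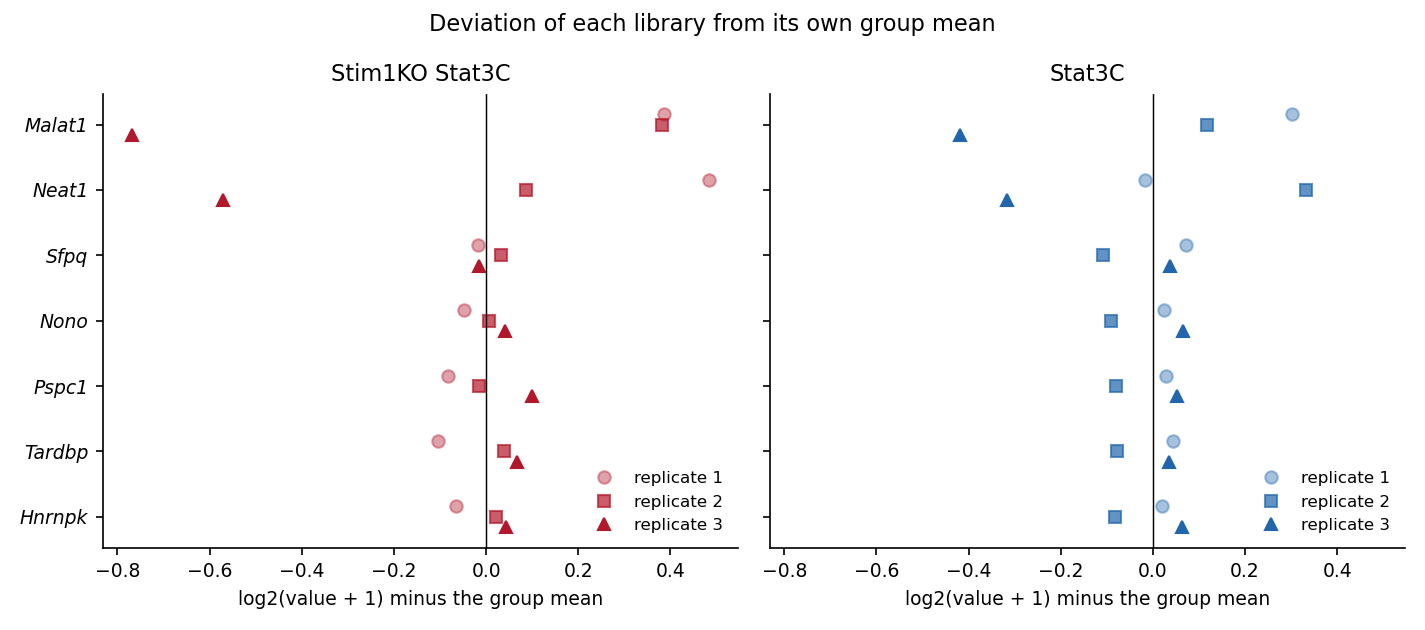
Deviation of each library from its own group mean in log2(value + 1), for Stim1KO Stat3C (left) and Stat3C (right), by gene and replicate. Malat1 and Neat1 are lowest in replicate 3 of each group (-0.77 and -0.57, and -0.42 and -0.32), while the protein genes lie between -0.11 and 0.10.

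Compared within like sex patterns, the log2 difference of Malat1 was 1.496 between replicates 1 and 2 of each group and 0.97 between the replicate 3 libraries. For Neat1 these values were 1.55 and 1.17. For the 5 protein genes they lay between -0.16 and -0.03 in replicates 1 and 2, and between -0.11 and -0.002 in replicate 3. With 1 library of each group in the replicate 3 comparison, that value has no replicate check. With the sex pattern as a term in limma, added after the data were seen, Malat1 and Neat1 were the 2 past the threshold. Each group held the sex patterns in the same numbers, so the term could not change their log2 differences of 1.32 and 1.42. Malat1 and Neat1 were also selected on this same comparison, so their passing is no separate check of the differences.

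Other RNAs of kinds that mostly lack a poly(A) tail were set beside Malat1 and Neat1. The table held 67 genes with the symbols of replication-dependent histone genes, whose messages mostly lack a poly(A) tail. They were listed after the data were seen and include a pseudogene, Hist3h2bb-ps. Which of them make a tailed message was not checked. Together they summed to 854.5, 781 and 864 normalised counts in Stim1KO Stat3C and 788, 694 and 676 in Stat3C. None of the 23 tested was called by limma or edgeR, against 13.6% of all genes called by limma. With each, 1 was at an unadjusted p under 0.05, and DESeq2 called 1. Their log2 differences were positive for 13 and negative for 10, with a median of 0.16. Counts were low and errors wide for many of them, as for Hist1h4c (log2 difference -1.2, SE 0.77). A difference as large as that of Malat1 could thus go uncalled. Rpph1, the tailless RNA of RNase P, was at 764, 821.5 and 823 in Stim1KO Stat3C and 900.5, 860 and 888 in Stat3C (log2 difference -0.14, SE 0.07, limma adjusted p = 0.208). Hist1h1c, the histone gene of highest mean, was at 215, 118 and 167 in Stim1KO Stat3C and 108, 95.7 and 80.4 in Stat3C (log2 difference 0.78, SE 0.24, limma adjusted p = 0.065), and Hist1h4i, the next, had a log2 difference of 0.20 (SE 0.25, limma adjusted p = 0.626). Rmrp, the RNA of a related enzyme, was at 15.1, 4.29 and 4.98 in Stim1KO Stat3C and 6.93, 28.2 and 29.1 in Stat3C, with groups that overlapped (log2 difference -1.26, SE 0.72, limma adjusted p = 0.271). Terc, the telomerase RNA, was at 1.07 to 4.98 in Stim1KO Stat3C and 1.01 to 7.75 in Stat3C, below the filter on low values. The part of poly(A) selection in the Malat1 and Neat1 values was not tested.

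Markers of other cells were also examined. The B cell marker Cd79a was at 0, 9.66 and 2.99 in Stim1KO Stat3C and 39.4, 21.1 and 71.7 in Stat3C. Pax5, the B cell lineage factor, was at 4.11, 2.15 and 0 in Stim1KO Stat3C and 19.1, 10.1 and 29.1 in Stat3C, and Ms4a1 was at 0 in all Stim1KO Stat3C libraries and at 8.56 to 24.2 in Stat3C. The 4 myeloid markers (Lyz2, Csf1r, Itgam and Adgre1) summed to 2.99 to 14.0 in Stim1KO Stat3C and 7.75 to 126 in Stat3C, so the groups overlapped, and the highest sum came from Stat3C replicate 2. Csf1r and Adgre1 were at 0 in all Stim1KO Stat3C libraries and in Stat3C replicate 3, and Itgam did not pass (limma adjusted p = 0.297). The CD8 markers Cd8a and Cd8b1 summed to 111 to 159 in Stim1KO Stat3C and 277 to 453.5 in Stat3C. The natural killer list reached 107 to 268 in Stim1KO Stat3C and 18.1 to 25.2 in Stat3C, nearly all of it Eomes, with Ncr1 and Klrb1c at 8.22 or below in every library. The part of such cells in the Malat1 and Neat1 differences was not tested.

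Of 29 other paraspeckle proteins listed, 28 were tested, and 2 rose, none fell and 26 did not pass (7.14% called, against 13.6% of all genes), with a median log2 difference of -0.02 beside -0.001 over all genes tested. Cirbp, a cold-inducible RNA-binding protein gene, rose to 896, 831 and 846 in Stim1KO Stat3C, against 579, 745 and 630 in Stat3C (log2 difference 0.40, SE 0.10, limma adjusted p = 0.0364). Ahdc1, which encodes an AT-hook protein, rose to 529, 399.5 and 545 in Stim1KO Stat3C, against 361, 338 and 294 in Stat3C (log2 difference 0.56, SE 0.14, limma adjusted p = 0.0378). In 8 of 18 alternatives Cirbp was no longer called, and likewise Ahdc1 in 8. The list held 4 calls without Stat3C replicate 2, 1 without Stim1KO Stat3C replicate 2 and 0 without any other library.

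Among the proteins that paraspeckles are known to need, Rbm14 averaged 2887.5 ± 105 in Stim1KO Stat3C and 2982 ± 135 in Stat3C (SD, n = 3 each). Dazap1 averaged 5530 ± 171 in Stim1KO Stat3C and 5969 ± 131 in Stat3C with groups that did not overlap, and missed the threshold (log2 difference -0.11, SE 0.05, limma adjusted p = 0.161). Hnrnph3 averaged 849 ± 75.7 in Stim1KO Stat3C and 817 ± 15.0 in Stat3C. Smarca4, the ATPase of a chromatin remodelling complex, averaged 7897 ± 390 in Stim1KO Stat3C and 8344 ± 36.8 in Stat3C. These 4 genes are named for their known need in paraspeckle assembly and were picked with their values in view.

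Of 28 nuclear speckle proteins, the company of Malat1, 1 rose, 2 fell and 25 did not pass (10.7% called, against 13.6% of all genes), with a median log2 difference of 0.01 beside -0.001 over all genes tested. Srsf2, a splicing factor that marks speckles, fell to 13726, 13715 and 14299 in Stim1KO Stat3C, against 16663, 15776 and 17753 in Stat3C (log2 difference -0.27, SE 0.06, limma adjusted p = 0.0199). Srsf1, a related splicing factor, fell by 0.21 on the log2 scale (SE 0.06, limma adjusted p = 0.0439), averaging 9604 ± 198 in Stim1KO Stat3C and 11101 ± 642 in Stat3C. Clk1, a kinase that phosphorylates such factors, rose by 0.24 (SE 0.06, limma adjusted p = 0.0357), averaging 1831 ± 29.9 in Stim1KO Stat3C and 1550 ± 80.8 in Stat3C. The list held 5 calls with the sex pattern as a term, 6 without Stat3C replicate 2, 1 without Stim1KO Stat3C replicate 3 and 0 without any other library.

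**Figure D4:**
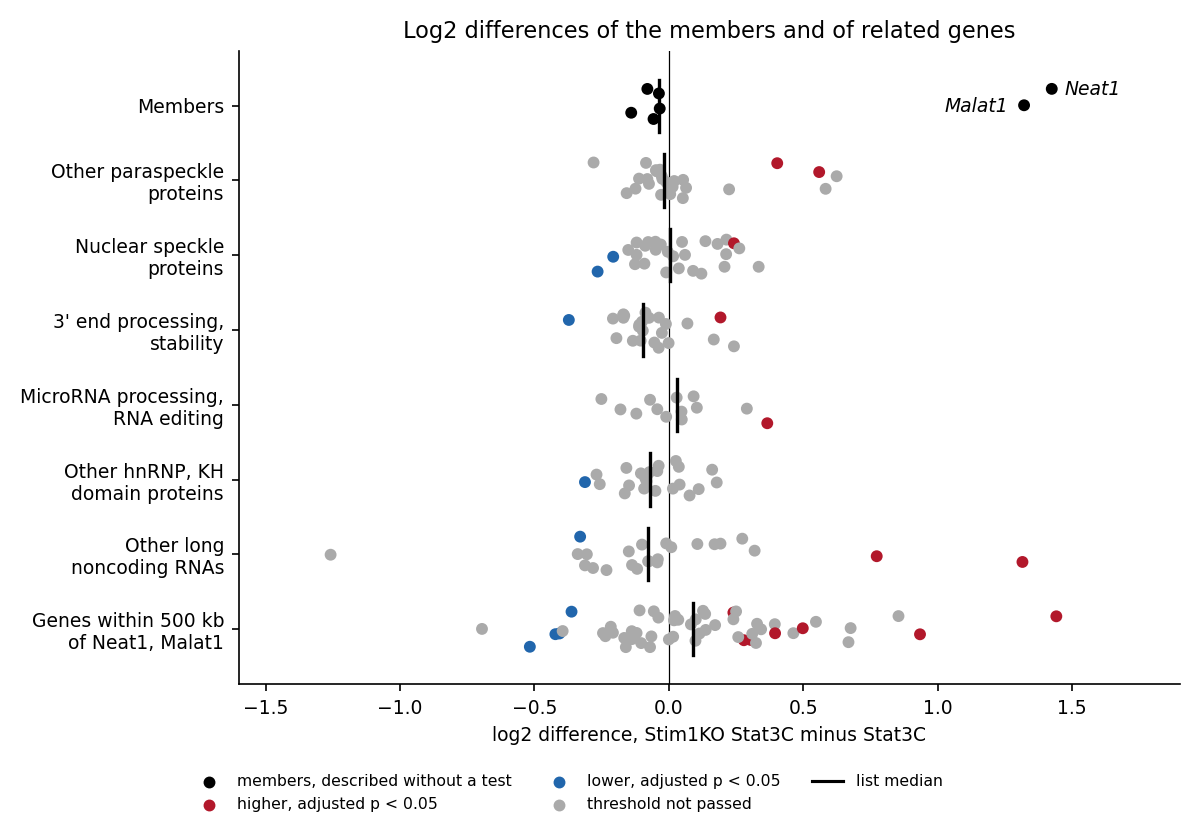
Log2 differences (Stim1KO Stat3C minus Stat3C) of the 7 genes (black) and of the tested genes of 7 further lists, red and blue where the limma adjusted p was under 0.05, with each list's median as a black line. Malat1 and Neat1 lie at 1.32 and 1.42, and the list medians lie between -0.10 and 0.09.

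Of 25 factors that cut, tail or degrade nuclear RNA, 1 rose, 1 fell and 23 did not pass (8.0% called, against 13.6% of all genes). Their median log2 difference was -0.10, beside -0.001 over all genes tested. Cpsf7, a subunit of the cleavage factor that acts at poly(A) sites, rose to 2625, 2619 and 2530 in Stim1KO Stat3C, against 2288, 2298 and 2217 in Stat3C (log2 difference 0.19, SE 0.05, limma adjusted p = 0.041). Its partners Nudt21, which reads the TGTA letters shown above, and Cpsf6 averaged 2306 ± 139 and 3772 ± 226 in Stim1KO Stat3C and 2637 ± 63.2 and 4038.5 ± 132 in Stat3C, and did not pass (limma adjusted p = 0.0709 and 0.292). They were named as partners of Cpsf7 after their values were seen. Rpp14, annotated as a subunit of RNase P, fell to 912, 1051 and 1058 in Stim1KO Stat3C, against 1374, 1151 and 1390.5 in Stat3C (log2 difference -0.37, SE 0.10, limma adjusted p = 0.0409). In 9 of 18 alternatives Cpsf7 was no longer called, and likewise Rpp14 in 9. The list held 5 calls without Stat3C replicate 2 and 0 without any other library.

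Of 13 tested genes of microRNA processing and RNA editing, 1 rose, none fell and 12 did not pass (7.69% called, against 13.6% of all genes, median log2 difference 0.03). Adarb1, which encodes the RNA-editing enzyme ADAR2, rose to 5194, 5543 and 5393 in Stim1KO Stat3C, against 4156, 4045 and 4311 in Stat3C (log2 difference 0.37, SE 0.05, limma adjusted p = 0.00423). In 1 of 18 alternatives it was no longer called, and the list held 4 calls without Stat3C replicate 2. Among 23 other hnRNP and KH domain genes, Hnrnpa0 fell and 22 did not pass (4.35% called, against 13.6% of all genes, median log2 difference -0.07). Hnrnpa0, which encodes an RNA-binding protein of the hnRNP A/B family, averaged 9832 ± 562.5 in Stim1KO Stat3C and 12204 ± 629 in Stat3C (log2 difference -0.31, SE 0.06, limma adjusted p = 0.0155). Pcbp1 and Pcbp2, relatives of Hnrnpk that bind C-rich RNA, averaged 13250 ± 181 and 12495 ± 952 in Stim1KO Stat3C and 13933 ± 620 and 13992 ± 994 in Stat3C, and did not pass (limma adjusted p = 0.36 and 0.178). This list held 6 calls without Stat3C replicate 2, 1 without Stim1KO Stat3C replicate 1 or 2, and 0 without any other library.

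Of 34 other long noncoding RNAs listed, 30 were found and 24 tested, of which 2 rose, 1 fell and 21 did not pass. The share called was 12.5%, against 13.6% of all genes, and the median log2 difference was -0.08, beside -0.001 over all genes. Kcnq1ot1, a nuclear RNA that silences its imprinted neighbours, rose to 541, 468 and 375 in Stim1KO Stat3C, against 294, 327 and 197 in Stat3C (log2 difference 0.77, SE 0.21, limma adjusted p = 0.0455). Its replicate 3 was the lowest of each group, as for Malat1 and Neat1, and in 11 of 18 alternatives it was no longer called. It is antisense to Kcnq1, and whether counting used strand is not stated.

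Morrbid (row Gm14005), a regulator of the death gene Bcl2l11 in short-lived blood cells, rose to 323, 254.5 and 289 in Stim1KO Stat3C, against 92.2, 148 and 111 in Stat3C (log2 difference 1.31, SE 0.19, limma adjusted p = 0.00481). Snhg15 (row Gm11974), a host of small nucleolar RNA, fell by 0.33 on the log2 scale (SE 0.08, limma adjusted p = 0.028), averaging 859 ± 33.1 in Stim1KO Stat3C and 1081 ± 80.1 in Stat3C. The list held 7 calls without Stat3C replicate 2 and 1 without any other library.

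Because Malat1 and Neat1 are neighbours, the genes within 500 kb of the pair were examined. Of 64 found, 54 were tested, and 7 rose, 4 fell and 43 did not pass (20.4% called, against 13.6% of all genes), with a median log2 difference of 0.09. Frmd8, 4223 bases beyond the start of Neat1, was at 3587, 3085 and 2692 in Stim1KO Stat3C and 2398, 2583 and 2354 in Stat3C, and missed the threshold (log2 difference 0.34, SE 0.10, limma adjusted p = 0.0584). It was named for its position.

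The called neighbours with the smallest adjusted p lay farther out. Ctsw, a cathepsin gene of cytotoxic lymphocytes, rose to 397, 290 and 517.5 in Stim1KO Stat3C, against 130, 149 and 152 in Stat3C (log2 difference 1.44, SE 0.20, limma adjusted p = 0.00437). Map4k2, a kinase gene, rose by 0.40 on the log2 scale (SE 0.08, limma adjusted p = 0.0136). Banf1, which encodes a chromatin protein of the nuclear envelope, and Sssca1 fell by 0.36 and 0.41 (limma adjusted p = 0.0124 and 0.0192). Leaving out replicate 1 or 2 of Stim1KO Stat3C left 1 neighbour called, as did leaving out replicate 1 or 3 of Stat3C, and 6 were called without Stim1KO Stat3C replicate 3 and 15 without Stat3C replicate 2.

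**Figure D5:**
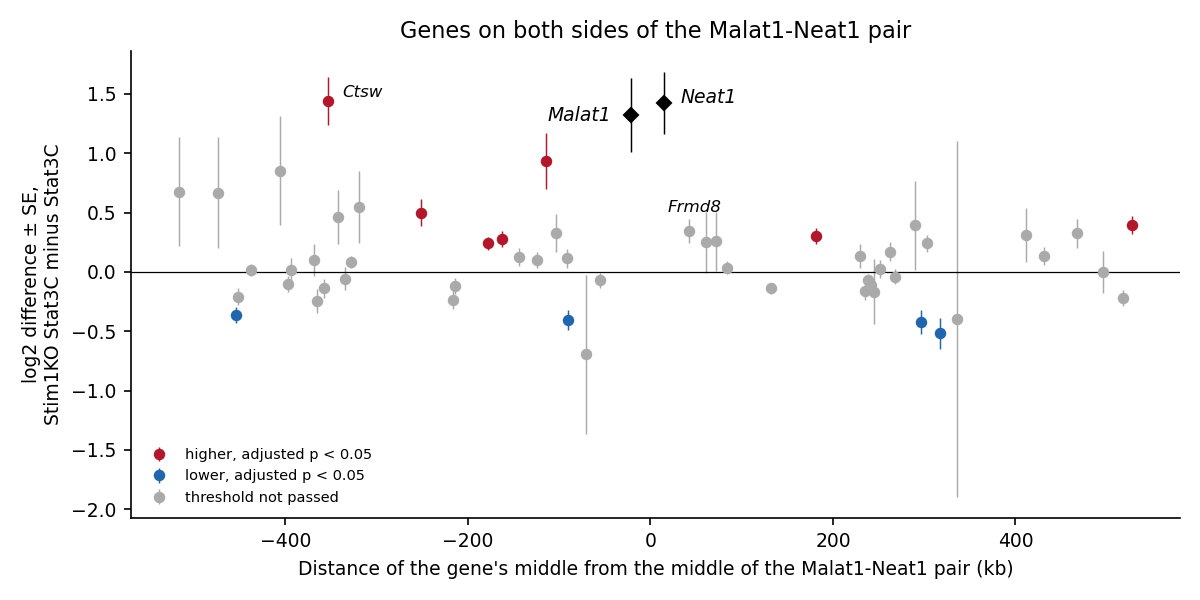
Log2 difference ± SE (Stim1KO Stat3C minus Stat3C) of the 54 tested genes within 500 kb against distance from the middle of the Malat1 and Neat1 pair in kb, with the pair as black diamonds. The nearest genes lie well below the pair, and called genes of each direction lie on either side.

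Genes whose pattern over the 6 libraries was most like that of each RNA were found by the root mean square distance between log2(value + 1) values centred on their own mean, over 10250 other genes with a mean of at least 50. For Malat1 they were Apbb1 (distance 0.19), Neat1 (0.23), Gabbr1 (0.26), Slc37a2 (0.27) and Cd200r1 (0.28). For Neat1 they were Dst (0.16), P2rx7 (0.17), Gata3 (0.17), Cd200r1 (0.17) and Map6 (0.175), with Malat1 in place 14. P2rx7 encodes an ATP-gated ion channel, Gata3 the lineage factor of Th2 cells and Dst a cytoskeletal linker. Dst was at 1747, 1347 and 981 in Stim1KO Stat3C and 389, 679 and 357 in Stat3C, which follows the order of the Neat1 libraries in each group. The 5 protein genes stood in places 5538 to 7833 for Malat1 and 6008 to 7837 for Neat1. The distance includes the difference between the groups, which was already known when the genes described here were selected. Genes higher in Stim1KO Stat3C are thus favoured as the nearest, and genes with little group difference must lie far away. The places of the protein genes restate that difference and are no separate test of whether they moved with the RNAs.

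Promoter windows of 300 bases (250 before to 50 after the start, RefSeq, GRCm38.p6) were matched for 6 of the 7 genes, Malat1 and the 5 protein genes. No window was available for Neat1, so its promoter was not examined. The promoters of the RNAs thus cannot be set against those of the protein genes. The letters TGACGT, which CREB and ATF factors bind, were sought on either strand because these factors respond to calcium. They were found in 7.6% of 27025 promoters, and of the 6 in that of Malat1 only, with 1 match on each strand. The Malat1 window (chr19:5802623-5802922, minus strand) is shown with the matches in capitals.
Malat1 promoter: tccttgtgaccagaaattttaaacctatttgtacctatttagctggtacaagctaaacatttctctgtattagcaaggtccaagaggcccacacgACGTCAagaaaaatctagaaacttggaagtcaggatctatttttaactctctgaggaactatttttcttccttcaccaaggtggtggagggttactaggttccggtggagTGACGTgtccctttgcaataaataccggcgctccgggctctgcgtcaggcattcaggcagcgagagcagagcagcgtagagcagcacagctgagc
The letters GGAAA, the core that NFAT binds, were present in 61.3% of promoters and in those of Sfpq, Nono and Tardbp among the 6. These letters are a description of the windows and say nothing of whether a factor was bound.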

How the data were processed

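Per the labels' protocols, poly(A) RNA (100 ng input) went into a stranded library kit. Tools listed without a role, per the submitters' processing notes, were DESeq2 1.22.2, HTSeq 0.11.1 and TopHat2 2.1.1, with build mm10. The strand setting and filters are not stated. The deposited signal per gene was treated as reads over a library's size factor, as the authors' notes name DESeq2 and 100% of values above 0 in each column were whole multiples (within 0.01) of 1 step, which gave back whole reads. In Stim1KO Stat3C replicate 3 the step (0.995) is close to 1, so edgeR was also run without that library. Of 23420 rows, 27 had names turned into dates and stayed out.

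The main test was limma 3.58.1 in R 4.3.3 (two-sided, variance trend) on log2(value + 1) over 11947 genes whose mean reached 10. edgeR 4.0.16 and DESeq2 1.42.0 on recovered reads, other scalings, pseudocounts and filters, leaving out libraries, and the sex pattern as a term were alternatives. Steps were tested on simulated data. The 7 genes and the lists were chosen with earlier results of these data known. List genes were named where past the threshold (up to 4 by smallest adjusted p, all where 5 or fewer, and the 2 of highest mean where none passed), and for Malat1 and Neat1 the 5 genes of nearest pattern. Replicate numbers follow the order of the samples and pair nothing, and p-values measure the spread between these libraries. Positions and transcripts are from GENCODE M21 (GRCm38), and list symbols not in the table were sought by RefSeq synonym. Masp2 and Rmi1 share exon bases with Tardbp and Hnrnpk on the other strand. Some listed genes are not reported here.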

Additional observations from a re-analysis of the deposited data

How the results depend on the processing

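The log2 differences of the 7 genes moved by less than the spread between replicates in all 18 alternatives. Leaving out 1 of 3 libraries cannot move a difference by more than that spread. The filters, the variance trend and the sex pattern term leave it unchanged. For these settings the outcome was fixed in advance and is no check of the differences. With 1 library left out they ranged from 1.11 to 1.71 for Malat1, 1.18 to 1.71 for Neat1, -0.11 to -0.02 for Sfpq, -0.13 to -0.05 for Nono, -0.19 to -0.10 for Pspc1, -0.07 to 0.02 for Tardbp and -0.08 to -0.004 for Hnrnpk, and 0 to 2 of the 7 were past the threshold. The count of called genes over the table was 1623 (618 to 2939 with 1 library left out, highest without Stat3C replicate 2). With 1 library left out, calls ranged from 0 to 4 for paraspeckle proteins, 0 to 6 for speckle proteins, 0 to 5 for 3′ end factors, 1 to 4 for microRNA and editing genes, 1 to 7 for other noncoding RNAs, 0 to 6 for hnRNP genes, 1 to 15 for neighbours and 0 to 1 for histone genes. Without a variance trend 827 genes were called, with 0 of the 7 genes and 0 paraspeckle, speckle, 3′ end and hnRNP genes, 1 noncoding RNA and 3 neighbours. With replicates 1 and 2 of each group alone 83 genes were called, Malat1 and Neat1 among them, and 0 in each list. DESeq2 called 2250 genes, with 5 speckle, 5 3′ end, 4 microRNA and editing genes and 1 histone gene, and edgeR called 1507. Without a filter on low values 1 paraspeckle and 1 3′ end gene were called, and with DESeq2 size factors 1 3′ end gene. edgeR without Stim1KO Stat3C replicate 3, added after the data were seen, called 916 genes, with 0 paraspeckle, speckle, 3′ end and hnRNP genes, 1 noncoding RNA and 5 neighbours. With the sex pattern (Xist above the summed Y-linked genes) as a limma term, also added, 1816 genes were called, with 5 speckle and 2 microRNA and editing genes. The cause of these differences was not tested.

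No paired analysis was possible because the labels give no replicate numbers shared by the groups. Groups of 3 libraries and a smallest Neat1 read number of 475 limit the precision, and gene counts do not separate the forms of Neat1.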
